A study of Mus musculus with 12 samples.

Results

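Hepatic stellate cells were followed through 10 of their genes in livers of CCR1 knockout and wild-type mice on a steatohepatitis diet. The genes were taken by name from the 27912 genes of the deposited table, and all 10 were found there and passed the low-count filter that left 17729 genes for testing. They are Lrat, Reln and Des, taken as markers of the quiescent state, and Pdgfra, Pdgfrb, Acta2, Tagln, Vim, Sparc and Lum, taken as markers of activation. CCR1 is a receptor for inflammatory chemokines. Male C57BL/6 mice, either wild type (WT) or knocked out for CCR1 (CCR1-KO), were 8 weeks old at the start and ate the CL diet, which combines high fat, high cholesterol and cholate, for 12 weeks. Polyadenylated RNA of liver was sequenced, 1 library per replicate, numbered 62, 63 and 64 (WT) or 65, 66 and 67 (CCR1-KO). The labels name 12 libraries in 4 groups of 3. The other 6 (a second WT set and a group labelled LKO-CL) and any liver of chow-fed mice were not analysed here. Every mouse compared ate the CL diet, and the sources used here give neither the C57BL/6 substrain nor the part of Ccr1 that was removed.

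Stellate cells lie between hepatocytes and the sinusoidal endothelium and store vitamin A as retinyl esters in lipid droplets. In injured liver they can lose these droplets, divide in response to platelet-derived growth factor (PDGF), make contractile actin and lay down collagen, which is the main source of scar in many models of liver fibrosis. Several of the genes are also active elsewhere: Acta2, Tagln and Des in vascular smooth muscle, Vim in leukocytes and endothelium, Sparc in endothelium, Lum and Pdgfra in fibroblasts around the portal vein. In RNA of whole liver, fewer cells of a type and less RNA per cell cannot be told apart.

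Between 74699391 and 79154085 reads were assigned to genes in a library, and 1 read was worth 0.0113 to 0.0167 CPM (counts scaled by library size, with TMM factors). The hepatocyte transcript Alb held 6.47% to 7.25% of all reads in WT and 4.41% to 5.37% in CCR1-KO. The major urinary protein (Mup) genes held 0.927% to 1.05% of reads in WT and 3.36%, 12.2% and 15.8% in CCR1-KO replicates 65, 66 and 67, and with these genes left out the same 4 stellate cell genes were called. Ccr1 itself had 100, 23 and 123 reads in WT replicates 62, 63 and 64, and 11, 4 and 14 reads in CCR1-KO replicates 65, 66 and 67 (log2 fold change -2.72 ± 0.76 SE, edgeR adjusted p = 0.075). Below, levels are CPM, fold changes are log2 of CCR1-KO over WT ± SE, and each adjusted p was obtained with the quasi-likelihood test of edgeR and adjusted by Benjamini and Hochberg's method over the 17729 genes, and a gene was called when it was under 0.05. There were 3 replicates in each group, called mice below, but the labels do not say outright that each number is a separate animal, so p-values measure the spread between these samples, which may in part be technical.

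Of the 10 genes, Sparc, Vim, Lrat and Reln fell in CCR1-KO liver, 0 rose, and Pdgfra, Pdgfrb, Acta2, Tagln, Lum and Des did not pass. For comparison, 3.61% of all genes tested were called lower and 2.83% higher. At an unadjusted p under 0.05, 7 of the 10 were lower and 0 higher, where 13.2% of genes tested were lower, and DESeq2 called 7 lower and 0 higher, where it called 8.21% of its genes lower and 6.48% higher. The same 7 genes (the 4 above with Pdgfrb, Tagln and Lum) had every CCR1-KO library below every WT library, an arrangement found in 17.4% of genes tested. The median log2 fold change of the 10 was -1.03, beside 0.0017 over all genes tested. None of the 4 calls held in every fit that left out 1 library, which also leaves fewer samples. With 1 library left out at a time, Sparc passed in 3 of 6 fits, Vim and Lrat in 1 and Reln in 0. The log2 fold changes in those fits ran from -1.78 to -1.24 for Sparc, -1.32 to -0.91 for Vim, -0.90 to -0.65 for Lrat and -0.76 to -0.52 for Reln, while the genes called over the whole table went from 1141 to between 102 and 395 in 5 of the 6 fits and to 2419 without CCR1-KO replicate 65. The count of the 10 genes called was 0 without WT replicate 63, CCR1-KO replicate 66 or CCR1-KO replicate 67, 1 (Sparc) without WT replicate 62 or 64, and 3 without CCR1-KO replicate 65. The share of all genes called lower in those fits was 0.361%, 0.996% and 1.19% without WT replicate 63, CCR1-KO replicate 66 and CCR1-KO replicate 67, then 0.655% and 0.579% without WT replicate 62 and 64, and 7.67% without CCR1-KO replicate 65. It was 3.47% with Mup genes left out (4 of the 10 called), 3.45% with median-ratio factors (3), 1.51% without a low-count filter (2) and 4.83% without scaling factors (6). With limma-voom it was 3.77% (4 of the 10), with limma on log2(FPKM + 0.5) 8.7% (6) and with limma on log2(FPKM + 0.1) 7.75% (6).

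**Figure D1:**
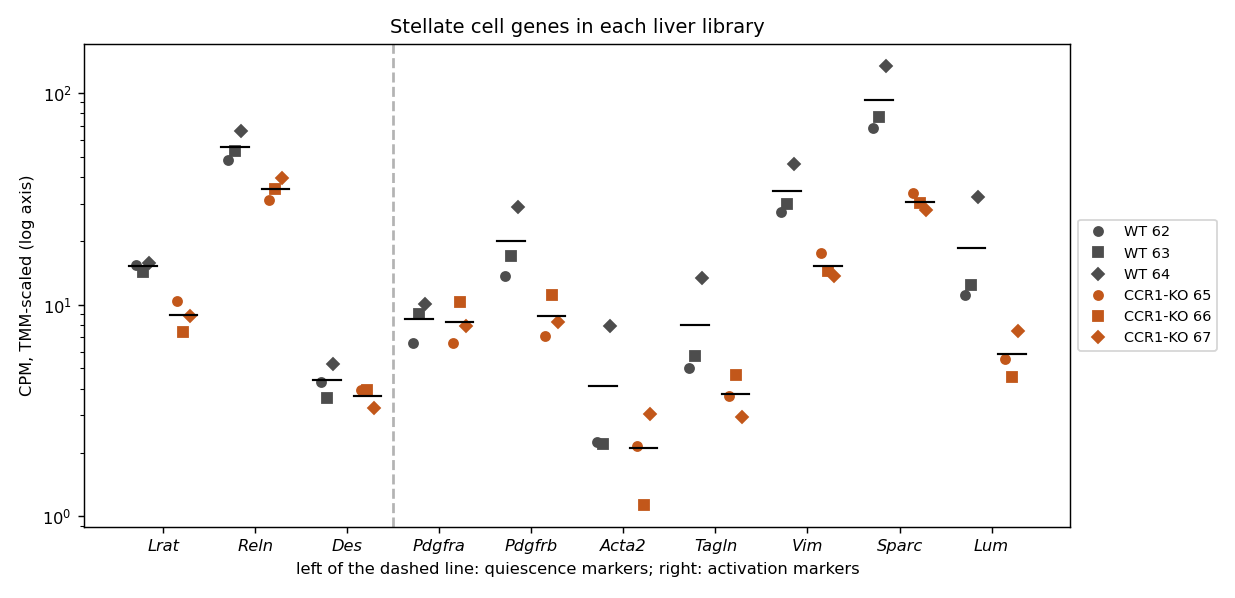
CPM (log axis) of the 10 stellate cell genes in each of the 6 libraries, with WT in grey, CCR1-KO in orange, marker shapes for replicates and a bar for each group mean. WT replicate 64 is the highest WT library for all 10 genes, and the CCR1-KO libraries lie below all WT libraries for 7 genes (not for Des, Pdgfra and Acta2).

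The promoter windows of the 4 genes that fell, and of Acta2, whose level varied most among WT mice, are shown because these are the genes the results turn on. Each window is from RefSeq (GRCm38.p6) and runs from 250 bases before the transcription start to 50 bases after it, 5′ to 3′ on the strand of the gene. RefSeq windows were matched for 7 of the 10 genes (Lrat, Reln, Des, Pdgfra, Acta2, Vim and Sparc). Capitals mark 3 kinds of motif, searched on both strands: TATAAA, the GC box GGGCGG, and the CArG box. The CArG box is the element bound by serum response factor, a CC and a GG around 6 bases of A or T, and here up to 1 of the 6 was allowed to be G or C.
Lrat: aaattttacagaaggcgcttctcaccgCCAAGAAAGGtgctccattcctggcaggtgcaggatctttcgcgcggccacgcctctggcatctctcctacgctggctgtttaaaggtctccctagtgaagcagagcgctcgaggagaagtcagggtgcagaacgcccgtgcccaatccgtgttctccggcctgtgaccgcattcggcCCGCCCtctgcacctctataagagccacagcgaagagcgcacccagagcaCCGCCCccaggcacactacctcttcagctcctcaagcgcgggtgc
Reln: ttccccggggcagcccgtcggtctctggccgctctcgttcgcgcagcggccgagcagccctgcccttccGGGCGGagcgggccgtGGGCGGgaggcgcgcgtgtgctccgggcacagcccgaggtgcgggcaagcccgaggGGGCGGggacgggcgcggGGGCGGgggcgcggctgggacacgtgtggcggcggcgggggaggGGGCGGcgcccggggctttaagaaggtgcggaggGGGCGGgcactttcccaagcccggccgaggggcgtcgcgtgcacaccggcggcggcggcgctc
Vim: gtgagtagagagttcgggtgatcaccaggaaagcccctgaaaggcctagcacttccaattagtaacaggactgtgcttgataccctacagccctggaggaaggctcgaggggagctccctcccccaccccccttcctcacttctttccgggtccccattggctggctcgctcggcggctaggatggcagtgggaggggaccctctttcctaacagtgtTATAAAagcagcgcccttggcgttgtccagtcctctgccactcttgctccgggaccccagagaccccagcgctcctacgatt
Sparc: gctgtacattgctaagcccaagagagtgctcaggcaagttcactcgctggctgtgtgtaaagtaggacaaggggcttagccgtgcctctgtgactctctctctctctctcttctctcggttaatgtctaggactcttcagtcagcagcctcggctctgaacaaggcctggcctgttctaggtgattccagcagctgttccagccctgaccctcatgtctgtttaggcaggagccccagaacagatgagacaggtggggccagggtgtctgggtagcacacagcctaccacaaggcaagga
Acta2: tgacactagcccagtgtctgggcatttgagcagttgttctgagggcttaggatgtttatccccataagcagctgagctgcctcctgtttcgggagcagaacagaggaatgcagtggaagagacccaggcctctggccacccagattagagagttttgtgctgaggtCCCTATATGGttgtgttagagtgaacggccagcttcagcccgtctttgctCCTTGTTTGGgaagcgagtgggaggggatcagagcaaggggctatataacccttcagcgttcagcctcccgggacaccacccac
The Lrat window is chr3:82903925-82904224 (minus strand), Reln chr5:22344656-22344955 (minus), Vim chr2:13574061-13574360 (plus), Sparc chr11:55420031-55420330 (minus) and Acta2 chr19:34255324-34255623 (minus). The RefSeq start of Sparc lies 3103 bases inside the gene model of the deposited table, that of Vim 384 bases inside and that of Acta2 217 bases inside.

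These 5 windows had little in common. Vim was the one with a TATAAA, beginning at position -32 when the start is position 0, and 13.6% of all 32851 RefSeq windows of the same length hold one. Reln had 6 GC boxes and Lrat 2, with the motif in 35.7% of all windows. The Reln window was 80.7% G and C, against a median of 52.7% over all windows, and 0.740% of windows were richer. Acta2 had 2 CArG boxes with the 1 allowed change, at positions -84 and -34, and Lrat had 1 at -223, with such a box in 9.98% of all windows. A CArG box without a change was found in 1.63% of all windows and in 0 of the 7 windows matched. The AP-1 site TGANTCA (7.81% of windows) and the nuclear receptor half-site AGGTCA (16.3%) were in 0 of the 7. No motif searched was shared by all of the genes that fell, and in Sparc none was found. Each motif is in 35.7% of all windows or fewer, so this says nothing about shared control of these genes. Des, which did not pass, had 2 GC boxes as well.

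Among the markers of quiescence, Lrat and Reln fell, to 58.7% and 63.4% of their WT means, while desmin did not pass. Lrat (ENSMUSG00000028003, chromosome 3, 82892579 to 82903973, minus strand, GRCm38) encodes lecithin retinol acyltransferase, which esterifies retinol for storage. It was at 15.5, 14.2 and 15.7 CPM in WT replicates 62, 63 and 64, and at 10.4, 7.40 and 8.85 CPM in CCR1-KO replicates 65, 66 and 67. The WT mice were close together and none overlapped the CCR1-KO mice. Means were 8.89 ± 1.51 in CCR1-KO against 15.1 ± 0.803 CPM in WT (SD, n = 3), a log2 fold change of -0.77 ± 0.16 (edgeR adjusted p = 0.034).

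Reln (ENSMUSG00000042453, chromosome 5, 21884454 to 22344702, minus strand) encodes reelin, a secreted glycoprotein that stellate cells make in the liver. It was at 48.3, 52.9 and 65.7 CPM in WT and at 31.2, 35.0 and 39.6 CPM in CCR1-KO. Again the groups did not overlap, with CCR1-KO replicate 67 the closest to WT. The log2 fold change was -0.66 ± 0.15 (35.2 ± 4.20 against 55.6 ± 9.05 CPM, edgeR adjusted p = 0.047). This call was the nearest to the threshold, and it was lost with median-ratio factors (adjusted p = 0.053) and without a low-count filter (adjusted p = 0.060).

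Des (ENSMUSG00000026208, chromosome 1, 75360329 to 75368579, plus strand) encodes desmin, an intermediate filament of muscle that stellate cells of rodents also carry. It was at 4.30, 3.64 and 5.23 CPM in WT and at 3.94, 3.94 and 3.26 CPM in CCR1-KO. The groups overlapped. The log2 fold change was -0.24 ± 0.22 (3.71 ± 0.391 against 4.39 ± 0.800 CPM, edgeR adjusted p = 0.54), so a difference was not detectable with 3 mice a group.

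Of the PDGF receptors, which drive division and migration of stellate cells, the beta receptor was lower in each CCR1-KO library without passing the test, and the alpha receptor overlapped. Pdgfrb (ENSMUSG00000024620, chromosome 18, 61045150 to 61085061, plus strand) is the receptor most used to mark stellate cells. It was at 13.7, 17.0 and 29.0 CPM in WT and at 7.13, 11.1 and 8.32 CPM in CCR1-KO. Its log2 fold change was -1.17 ± 0.30 (8.84 ± 2.03 against 19.9 ± 8.05 CPM, edgeR adjusted p = 0.059). It passed with DESeq2 (adjusted p = 0.0012), with limma on log2(FPKM + 0.5) (adjusted p = 0.037) or log2(FPKM + 0.1) (0.038), and with edgeR without scaling factors (0.033). It did not pass with limma-voom (adjusted p = 0.069). With edgeR it also missed with Mup genes left out (adjusted p = 0.059), with median-ratio factors (0.060) and without a low-count filter (0.081). In the 6 fits that left out 1 library its edgeR adjusted p was 0.073 to 0.160. Pdgfra (ENSMUSG00000029231, chromosome 5, 75152292 to 75198215, plus strand), the alpha receptor, was at 6.62, 9.05 and 10.1 CPM in WT and at 6.60, 10.3 and 7.93 CPM in CCR1-KO. The highest and the lowest of these 6 values were both from CCR1-KO mice. The log2 fold change was -0.05 ± 0.23 (8.27 ± 1.86 against 8.58 ± 1.78 CPM, edgeR adjusted p = 0.91), and it turned positive without WT replicate 64 (0.08) or without CCR1-KO replicate 65 (0.08).

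Set against each other within a library, where scaling plays no part, the receptors separated the groups. There were 48.4, 53.3 and 34.8 Pdgfra reads per 100 Pdgfrb reads in WT replicates 62, 63 and 64, and 92.6, 92.8 and 95.4 in CCR1-KO replicates 65, 66 and 67. The CCR1-KO mice were within 3 reads of each other and far above the highest WT mouse. By an exact permutation test (two-sided) p was 0.10, which no split of 3 against 3 can go below. This pair was singled out after its values were seen, among 45 pairs of the 10 genes, and adjusted over the 45 its p was 0.25. In all, 18 of the 45 ratios had groups that did not overlap, 6 of them with Pdgfra. Over every pair of the 17729 genes the share was 31.1%, so the number for these genes was near the background. The PDGF ligands are given with the other lists below.

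Of the contractile genes, neither passed the test, and Acta2 had the widest spread of the 10 genes among WT mice (coefficient of variation 79.8%) and among CCR1-KO mice (45.0%). Acta2 (ENSMUSG00000035783, chromosome 19, 34241090 to 34255590, minus strand) encodes alpha smooth muscle actin, the usual stain for activated stellate cells. It was at 2.25, 2.19 and 7.90 CPM in WT and at 2.15, 1.13 and 3.03 CPM in CCR1-KO. WT replicates 62 and 63 lay inside the CCR1-KO range and replicate 64 stood far above every other mouse. The log2 fold change of -0.97 ± 0.57 (2.105 ± 0.948 against 4.11 ± 3.28 CPM, edgeR adjusted p = 0.34) became -0.08 ± 0.43 without WT replicate 64 (adjusted p = 0.94). CCR1-KO replicate 66 had 74 Acta2 reads, for which the exact 95% interval from counting error alone was about ± 23.5% of the value. Myh11, the smooth muscle myosin, was at 2.08, 1.57 and 1.00 CPM in WT (chosen after its values were seen). It was lowest in the WT mouse where Acta2 was highest. The list it belongs to, vascular smooth muscle and pericyte markers, summed to 42.6, 35.2 and 43.9 CPM in WT replicates 62, 63 and 64. Of its 9 tested genes, 4 were highest among WT in replicate 64. The part of smooth muscle in the level of Acta2 was not tested.

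Tagln (ENSMUSG00000032085, chromosome 9, 45929619 to 45936058, minus strand) encodes transgelin, a protein that binds actin filaments in smooth muscle and myofibroblasts. It was at 5.02, 5.74 and 13.3 CPM in WT and at 3.70, 4.66 and 2.96 CPM in CCR1-KO. The groups did not overlap, but CCR1-KO replicate 66 came close to WT replicate 62. The log2 fold change was -1.09 ± 0.39 (3.77 ± 0.851 against 8.02 ± 4.59 CPM, edgeR adjusted p = 0.14), and -0.51 ± 0.26 without WT replicate 64. Part of the Tagln model, 3627 of 6440 bases, is covered on the opposite strand by Gm48529, which had 2518 reads over the 6 libraries beside 2868 for Tagln. The libraries were made with a dUTP protocol that keeps strand, but the sources used here do not say if the counting made use of it, and reads of these models cannot be told apart. Gm48529 was at 6.01 CPM in CCR1-KO and 5.02 CPM in WT (log2 fold change 0.26 ± 0.21, edgeR adjusted p = 0.49).

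The filament and matrix genes held both activation markers that fell. Vim (ENSMUSG00000026728, chromosome 2, 13573927 to 13582826, plus strand) encodes vimentin, the intermediate filament of mesenchymal cells and leukocytes. It was at 27.3, 29.9 and 45.9 CPM in WT and at 17.5, 14.4 and 13.6 CPM in CCR1-KO, with a wide gap between the groups. Its mean in CCR1-KO was 44.2% of that in WT (edgeR adjusted p = 0.024, and 0.064 without WT replicate 64). Sparc (ENSMUSG00000018593, chromosome 11, 55394500 to 55423183, minus strand) encodes a secreted glycoprotein that binds collagen and guides its assembly. It was at 67.8, 76.7 and 134 CPM in WT and at 33.6, 30.3 and 28.0 CPM in CCR1-KO. The CCR1-KO mice were nearly alike, and the groups lay well apart. The mean in CCR1-KO was 33.0% of that in WT (edgeR adjusted p = 0.017). Sparc was the one member still called without WT replicate 64, at a log2 fold change of -1.24 ± 0.14 (adjusted p = 0.027).

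Lum (ENSMUSG00000036446, chromosome 10, 97565128 to 97572703, plus strand) encodes lumican, a small leucine-rich proteoglycan that binds collagen fibrils and sets their spacing. It was at 11.1, 12.4 and 32.3 CPM in WT and at 5.55, 4.55 and 7.48 CPM in CCR1-KO. The groups did not overlap, and WT replicate 64 was again far above the others. Its log2 fold change of -1.67 ± 0.42 was the largest in size of the 10 but missed the threshold (5.86 ± 1.49 against 18.6 ± 11.9 CPM, edgeR adjusted p = 0.059). Without WT replicate 64 it was -1.004 ± 0.25 (adjusted p = 0.12), while DESeq2 on all libraries called it (adjusted p = 0.00021).

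**Figure D2:**
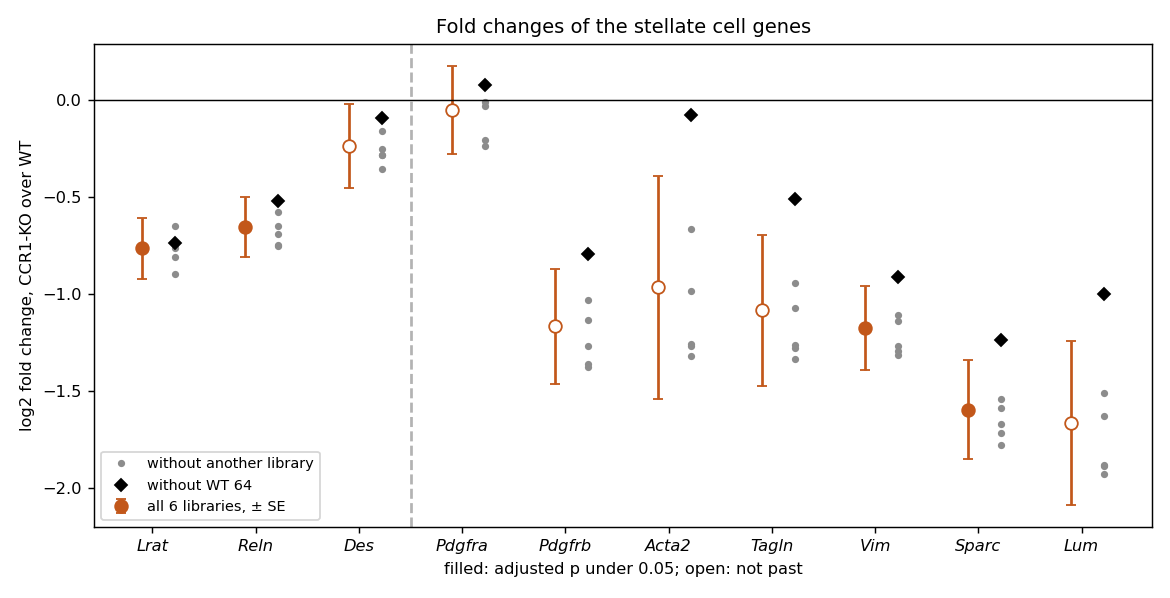
Log2 fold change of CCR1-KO over WT for the 10 genes (circles with SE bars, filled where the adjusted p is under 0.05), with the fits that leave out 1 library as points and the fit without WT replicate 64 as black diamonds. Without that mouse Acta2 moves from -0.97 to -0.08 and Lrat only from -0.77 to -0.74.

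Compared per length of transcript, on the deposited FPKM values, Sparc was the most abundant of the 10 in both groups, with mean FPKM of 25.2 ± 10.9 for WT and 6.74 ± 1.66 for CCR1-KO mice (SD, n = 3). In WT it was followed by Lum at 7.86 ± 5.38, Vim at 7.42 ± 2.53, Tagln at 4.16 ± 2.58 and Pdgfrb at 3.73 ± 1.68 FPKM. Then came Lrat at 2.88 ± 0.225, Reln at 2.39 ± 0.503, Acta2 at 1.94 ± 1.63, Des at 1.19 ± 0.259 and Pdgfra at 0.877 ± 0.218 FPKM. Below Sparc, no neighbours in this order differed by more than the sum of their SDs. In CCR1-KO, Vim at 2.67 ± 0.791 and Lum at 1.95 ± 0.407 FPKM came next to Sparc, and the others lay between 0.673 and 1.57 FPKM. Tagln held the upper end of that range at 1.57 ± 0.443 and Pdgfra the lower end at 0.673 ± 0.131 FPKM.

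The contrast of the kinds of marker was a matter of degree. The median log2 fold change was -0.66 over the 3 quiescence markers and -1.17 over the 7 activation markers, and 2 of each fell. No loss of activation markers with gain of quiescence markers was seen, since none of the 3 quiescence markers was called higher by edgeR, DESeq2, limma-voom or limma on FPKM. Within each library, the mean log2(CPM + 0.5) of the activation markers minus that of the quiescence markers was -0.38, -0.13 and 0.49 in WT replicates 62, 63 and 64, and -0.51, -0.40 and -0.42 in CCR1-KO replicates 65, 66 and 67. WT replicate 62 lay next to the CCR1-KO mice and replicate 64 far above them. The groups differed by -0.44 (-0.44 ± 0.063 against -0.0076 ± 0.45, SD, n = 3), and by -0.19 without WT replicate 64. These values are a description, with no test, since the genes were chosen with earlier results of these data known. For the textbook pair of the states, Lrat and Acta2, there were 6.88, 6.49 and 1.99 Lrat reads per Acta2 read in WT and 4.84, 6.53 and 2.92 in CCR1-KO, and the groups overlapped throughout.

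**Figure D3:**
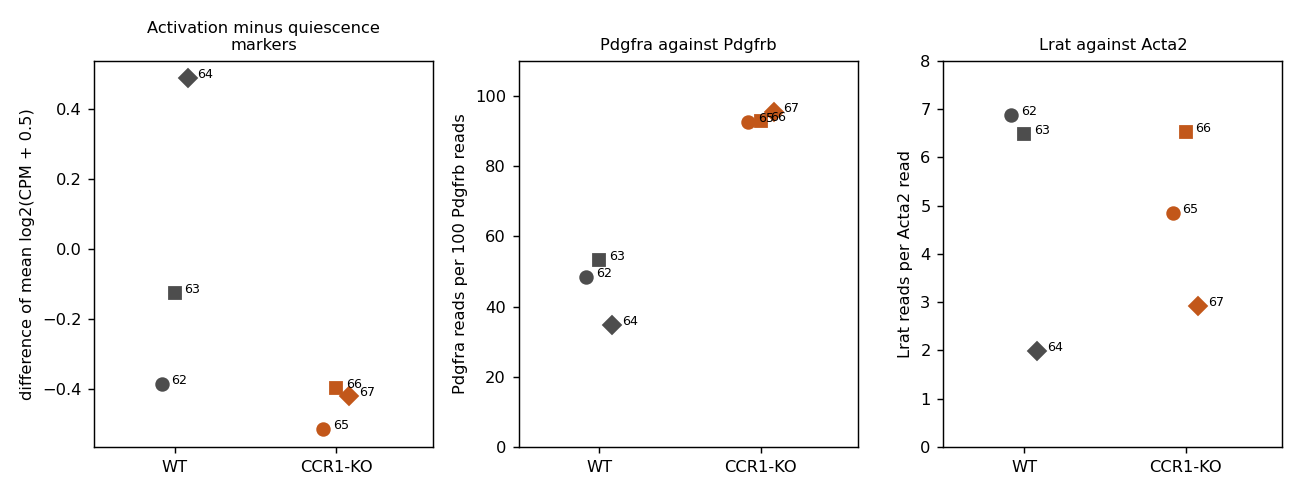
Values within each library, with replicate numbers beside the points: activation minus quiescence markers (difference of mean log2(CPM + 0.5)), Pdgfra reads per 100 Pdgfrb reads, and Lrat reads per Acta2 read. The receptors separate the groups (34.8 to 53.3 against 92.6 to 95.4), whereas Lrat against Acta2 does not (1.99 to 6.88 against 2.92 to 6.53).

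WT replicate 64 set much of the spread. It was the highest WT library for all 10 genes, while this was so for 33.2% of all genes tested. Its level over the mean of the other WT mice was 3.56-fold for Acta2, 2.76 for Lum, 2.47 for Tagln, 1.89 for Pdgfrb, 1.85 for Sparc and 1.61 for Vim. The quiescence markers and the alpha receptor stood out less, at 1.32 for Des, 1.30 for Reln, 1.29 for Pdgfra and 1.06 for Lrat. Collagen followed the same mouse, with Col1a1 at 27.7, 45.9 and 161 CPM in WT replicates 62, 63 and 64 (chosen after its values were seen). The summed level of the 10 genes was even in CCR1-KO, at 122, 123 and 123 CPM in replicates 65, 66 and 67, against 202, 224 and 359 CPM in WT. Gene by gene the CCR1-KO mice were less even, with coefficients of variation from 9.20% (Sparc) to 45.0% (Acta2). That coefficient was larger in CCR1-KO than in WT for Lrat (17.0% against 5.30%) and Pdgfra (22.5% against 20.7%), and smaller for the other genes.

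Other genes of stellate cell biology were read from 9 lists, which also hold genes active in other cells, such as Rbp4 of hepatocytes. Counts over them are thus not of stellate cells alone. In them 136 genes other than the 10 were tested. Of these, 23 (16.9%, beside 3.61% of all genes tested) fell, 0 rose and 113 did not pass, with a median log2 fold change of -0.51 beside 0.0017 over all genes tested. At an unadjusted p under 0.05, 57 were lower and 4 higher, where 13.2% of all genes tested were lower. DESeq2 called 45 lower and 2 higher, where it called 8.21% of its genes lower and 6.48% higher. The count of genes that fell was 3 to 9 in 5 of the 6 fits that left out 1 library. It was 6 without WT replicate 62, 3 without 63, 6 without 64, 5 without CCR1-KO replicate 66 and 9 without 67. The share of all genes called lower in those 5 fits was 0.361% to 1.19%. Without CCR1-KO replicate 65 the count was 28, where 7.67% of all genes tested were called lower.

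The list of genes that identify stellate cells had 4 of 29 lower, 0 higher and 25 not past the threshold, with a median of -0.13. At an unadjusted p under 0.05, 7 of the 29 were lower and 1 higher, and DESeq2 called 5 lower and 1 higher. The log2 fold change was negative for 17 of the 29. The summed level of the list overlapped between the groups, at 459 to 569 CPM in WT and 443 to 746 CPM in CCR1-KO. Those that fell included Cygb, the stellate cell globin (5.98 ± 0.675 against 12.2 ± 2.66 CPM, log2 fold change -1.04 ± 0.20, edgeR adjusted p = 0.027). They also included the collectin Colec11 (log2 fold change -0.55 ± 0.12, edgeR adjusted p = 0.041) and Pth1r, the parathyroid hormone receptor (log2 fold change -0.74 ± 0.16, edgeR adjusted p = 0.042). The list of transcription factors had 2 of 23 lower and 0 higher (median -0.51): Pparg, a nuclear receptor linked to the quiescent state and also active in fatty hepatocytes (log2 fold change -1.69 ± 0.15, edgeR adjusted p = 0.0034), and Tead1, a partner of YAP (log2 fold change -0.90 ± 0.18, edgeR adjusted p = 0.030). Zeb2, a repressor in mesenchymal cells, was at 6.16 ± 2.16 against 11.5 ± 1.08 CPM and did not pass (edgeR adjusted p = 0.083). Of the 23 transcription factors, 14 had a negative log2 fold change. At an unadjusted p under 0.05, 6 were lower and 1 higher, and DESeq2 called 5 lower and 0 higher. The summed level of this list was higher in CCR1-KO, at 572 to 643 CPM against 286 to 483 CPM in WT.

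The vitamin A list had 2 of 13 lower, 0 higher and 11 not past the threshold (median -0.37). Among them was Rarb, a retinoic acid receptor that retinoic acid itself induces (0.272 ± 0.161 against 1.22 ± 0.249 CPM, log2 fold change -2.15 ± 0.51, edgeR adjusted p = 0.049). Rbp4, the carrier of retinol in plasma made by hepatocytes, was at 3531 ± 412 against 2288 ± 212 CPM without passing (edgeR adjusted p = 0.058). Its CCR1-KO libraries lay above all WT libraries. It was called higher with DESeq2 (adjusted p = 0.0016), limma-voom (0.037) and edgeR with Mup genes left out (0.042). Without scaling factors (0.27) or with limma on log2(FPKM + 0.5) (0.29) it did not pass. Over the 13 genes, 4 were lower and 2 higher at an unadjusted p under 0.05, and DESeq2 called 3 lower and 1 higher. Of the 5 PDGF ligands and relatives, 0 passed, 2 were lower and 0 higher at an unadjusted p under 0.05, and DESeq2 called 2 lower. Pdgfb, a ligand of the beta receptor, was at 0.973 ± 0.267 against 2.41 ± 0.5998 CPM (log2 fold change -1.31 ± 0.32, edgeR adjusted p = 0.055). Pdgfa was at 2.62 ± 0.699 against 4.69 ± 0.621 CPM (edgeR adjusted p = 0.094), and Pdgfd at 1.18 ± 0.349 against 1.64 ± 0.577 CPM (edgeR adjusted p = 0.49).

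Around Acta2 and Tagln, the list of the contractile apparatus had 2 of 17 tested genes lower, 0 higher and 15 that did not pass (median -0.39). Tpm1, a tropomyosin that lies along actin filaments, fell in this fit and in each of the 6 fits that left out 1 library (21.1 ± 2.19 against 43.8 ± 6.22 CPM, log2 fold change -1.06 ± 0.14, edgeR adjusted p = 0.011). Csrp1, an actin-associated LIM protein, fell as well (log2 fold change -0.84 ± 0.19, edgeR adjusted p = 0.044). It passed in none of those 6 fits, where its log2 fold change ran from -0.96 to -0.62. Cald1, caldesmon, was at 169 ± 11.7 against 218 ± 15.0 CPM (edgeR adjusted p = 0.12). Of the 8 other intermediate filament genes, 0 passed, while 3 were lower and 0 higher at an unadjusted p under 0.05 and DESeq2 called 1 lower. Lmna was at 29.9 ± 2.28 against 46.1 ± 11.7 CPM, Krt8 at 199.7 ± 6.72 against 291 ± 99.7 CPM and Nes, the progenitor filament nestin, at 2.59 ± 0.879 against 4.15 ± 0.396 CPM (edgeR adjusted p = 0.084, 0.19 and 0.20).

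Among 13 matricellular genes related to Sparc, 1 fell and 12 did not pass (median -1.03), although 8 were lower at an unadjusted p under 0.05 and DESeq2 called 7 lower. Smoc2, a calcium-binding protein of the Sparc family, fell to 4.14 ± 1.98 against 17.9 ± 7.32 CPM (log2 fold change -2.12 ± 0.44, edgeR adjusted p = 0.034). Fstl1 was at 3.65 ± 0.458 against 11.2 ± 6.44 CPM and periostin, Postn, at 7.10 ± 3.35 against 18.6 ± 6.66 CPM (edgeR adjusted p = 0.051 and 0.064). Among 9 proteoglycans related to Lum, 2 fell (median -0.64): Dcn, decorin, at 109 ± 7.93 against 169 ± 17.3 CPM (log2 fold change -0.64 ± 0.13, edgeR adjusted p = 0.031), and Bgn, biglycan, at 77.1 ± 14.7 against 145 ± 28.5 CPM (log2 fold change -0.91 ± 0.20, edgeR adjusted p = 0.037). Ecm2 was at 0.450 ± 0.142 against 1.37 ± 0.495 CPM (edgeR adjusted p = 0.061). The list of other myofibroblast genes had the most calls, with 11 of 22 lower, 0 higher and 11 not past the threshold (median -1.78). That count was 1 without WT replicate 63, 2 without CCR1-KO replicate 66, 4 without WT replicate 62 or 64, 5 without CCR1-KO replicate 67 and 10 without CCR1-KO replicate 65. The 3 of smallest p were Tgfbi, a matrix protein induced by TGF-beta (36.8 ± 2.64 against 61.98 ± 1.72 CPM), the collagen Col3a1 (16.1 ± 4.27 against 171 ± 123 CPM) and Pcolce, which helps to cleave procollagen (4.23 ± 0.378 against 13.1 ± 4.25 CPM). Without WT replicate 64, this list's log2 fold changes for Col3a1, Pcolce and Tgfbi were -2.64, -1.34 and -0.73, against -3.41, -1.63 and -0.75 with it. Of the genes of the 9 lists named here as lower, Pparg and Tpm1 passed in 6 of the 6 fits that left out 1 library, Col3a1 in 5, Pcolce in 4, Tgfbi in 3, and Cygb, Colec11, Pth1r, Tead1, Rarb, Csrp1, Smoc2, Dcn and Bgn in 1 or 0.

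**Figure D4:**
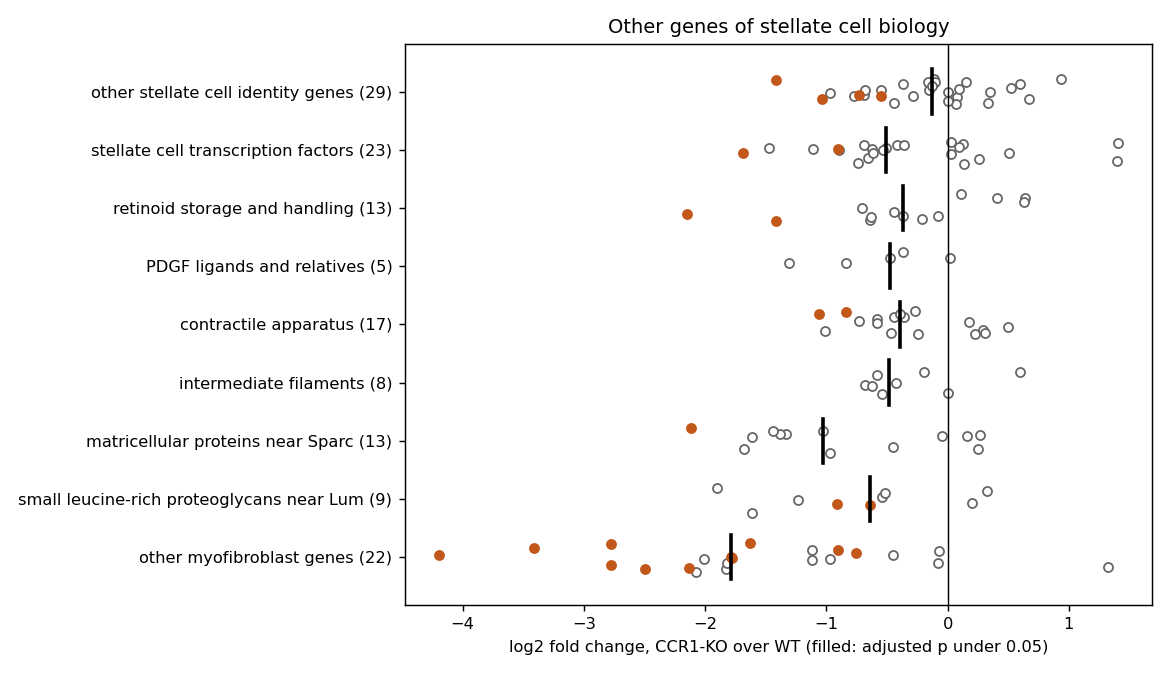
Log2 fold change of CCR1-KO over WT for the tested genes of 9 lists (number tested in brackets), filled where the adjusted p is under 0.05, with a bar at each median. The median is -0.13 for identity genes and -1.78 for other myofibroblast genes, and no filled point lies above 0.

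Markers of other cells that could carry the same transcripts were summed in each library. Vascular smooth muscle and pericyte markers were at 35.2 to 43.9 CPM in WT and 34.3 to 49.3 CPM in CCR1-KO. Of 9 tested, 0 passed, also at an unadjusted p under 0.05 and with DESeq2 (median 0.07), and the defining marker Cnn1 was too low to be tested (0.077 and 0.102 CPM on average in WT and CCR1-KO). Portal fibroblast and mesothelial markers were lower as a sum, at 98.0 to 167 CPM in WT and 30.9 to 47.5 CPM in CCR1-KO. Of 11 tested, 4 fell: Entpd2, an ectonucleotidase (log2 fold change -1.52 ± 0.18, edgeR adjusted p = 0.0085), Gas6, a ligand of TAM receptors (-1.73 ± 0.25, 0.013), the dermatopontin gene Dpt (-1.93 ± 0.45, 0.048) and Cd34 (-1.91 ± 0.45, 0.049). Most of this sum was Gas6, on average 82.0 of 122 CPM in WT and 24.7 of 38.4 CPM in CCR1-KO. The defining portal marker Thy1 was at 1.31 ± 0.637 against 1.03 ± 0.162 CPM. Bile duct markers summed to 144 to 223 CPM in WT and 53.5 to 64.4 CPM in CCR1-KO, with 3 of 11 lower (Sprr1a and Spp1 among them). Most of the bile duct sum was Spp1, on average 141.6 of 179.6 CPM in WT and 41.8 of 60.4 CPM in CCR1-KO. At an unadjusted p under 0.05, 5 portal fibroblast and mesothelial and 7 bile duct markers were lower and 0 higher. Over all genes tested, 13.2% were lower by that measure. DESeq2 called 5 and 6 of them lower and 0 higher, where it called 8.21% of its genes lower. Of these marker genes, Sprr1a and Spp1 passed in 6 of the 6 fits that left out 1 library, Entpd2 in 5, Gas6 in 3, and Cd34 and Dpt in 1 or 0. The share of these cells in the lower levels of Lum, Sparc and Vim was not tested.

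Endothelial and blood cell markers separated the groups less. Endothelial markers summed to 180 to 271 CPM in WT and 164 to 225 CPM in CCR1-KO, and 0 of 12 passed (5 lower at an unadjusted p under 0.05, 0 with DESeq2). Macrophage markers summed to 385 to 494 CPM in WT and 220.0 to 526 CPM in CCR1-KO, where the highest of all was CCR1-KO replicate 65. Of 15 tested, 1 fell (Trem2, log2 fold change -1.49 ± 0.32, edgeR adjusted p = 0.038). At an unadjusted p under 0.05, 4 of the 15 were lower and 0 higher, and DESeq2 called 3 lower and 0 higher. Markers of T, NK and B cells, of neutrophils and of erythrocytes overlapped between the groups, with 0 of 11, 0 of 5 and 0 of 5 past the threshold. At an unadjusted p under 0.05 there were 0, 0 and 1 among them, and with DESeq2 0 in each. Hepatocyte markers summed to 75522 to 89329 CPM in WT and 74387 to 93549 CPM in CCR1-KO, with 3 of 11 higher (Serpina1a, Ass1 and Cps1) and 0 lower, although 1 was lower at an unadjusted p under 0.05 and with DESeq2. Trem2, Serpina1a, Ass1 and Cps1 each passed in 1 of the 6 fits that left out 1 library. No marker of these 9 lists was without reads in all 6 libraries. The part of leukocytes and endothelium in the level of Vim was not tested.

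**Figure D5:**
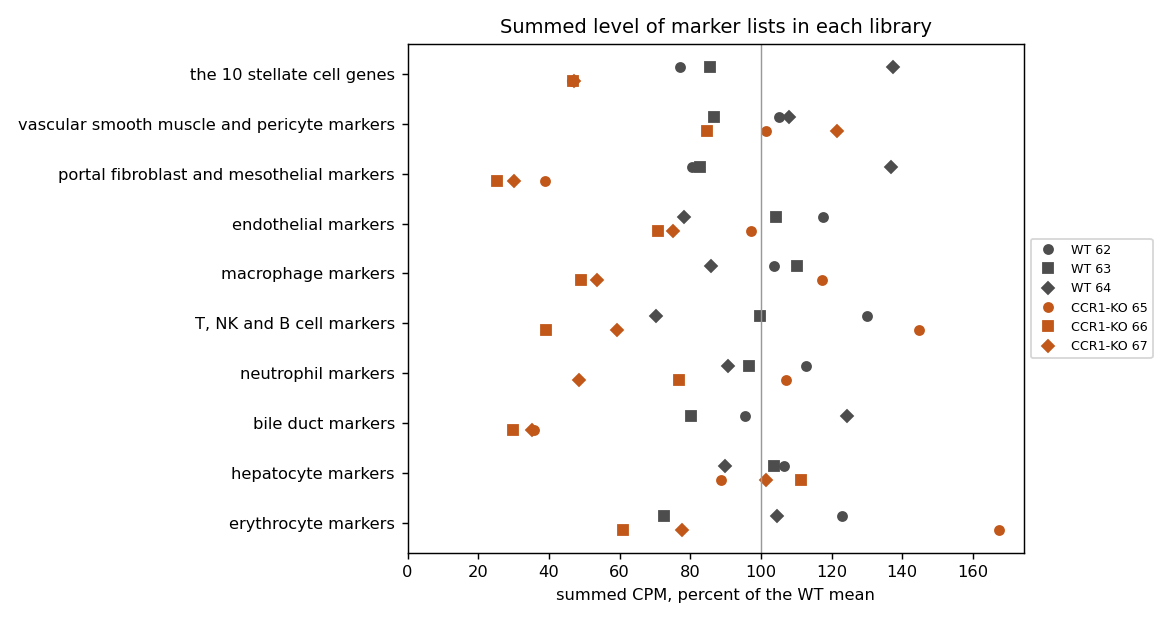
Summed CPM of the 10 stellate cell genes and of 9 marker lists in each library, as percent of the WT mean (WT in grey, CCR1-KO in orange). The CCR1-KO libraries lie below all WT libraries for the stellate cell genes, the portal fibroblast and mesothelial markers and the bile duct markers, and the groups overlap for the other lists. Gas6 makes up most of the portal fibroblast and mesothelial sum, and Spp1 most of the bile duct sum.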

How the data were processed

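Gene-level values of 6 mouse liver libraries were used, 3 per group. The authors deposited raw read counts per gene and FPKM values (fragments scaled by gene length and depth) side by side, per the file headers. The submitters' processing notes name edgeR, DESeq2, StringTie 2.1.6, HISAT2 2.2.1 and cutadapt 1.9, without their roles. They list the build GRCh38, while the gene identifiers are those of mouse and the coordinates match GRCm38 for all 10 genes. Aligner settings, strand use and the treatment of reads that map to several genes are not given in the sources used here.

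From the counts, edgeR 4.0.16 was run with TMM factors, filterByExpr (minimum count 10, minimum total count 15) and the quasi-likelihood test (glmQLFit, glmQLFTest), CCR1-KO against WT, with no covariate. P-values were adjusted over all 17729 genes tested. Single values were compared with an exact two-sided permutation test, whose smallest p for 3 against 3 is 0.10. Genes were ranked by abundance on the deposited FPKM only. Ratios of genes within a library used counts, and the activation minus quiescence difference used CPM, both without correction for gene length. Counting intervals are exact (95%) and cover counting error only. All 10 genes were named in full, with the 3 genes of smallest p of each stellate cell list and each gene past the threshold where 5 or fewer passed. Of other cells' marker lists, each gene past the threshold was named where 5 or fewer passed. Genes with a mean FPKM under 0.1 in both groups were not named. Some genes that the rule would name are counted but not reported here. The members, lists and tests were chosen with earlier results of these data known.

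Alternatives were DESeq2 1.42.0, limma-voom and limma 3.58.1 on log2(FPKM + 0.5) and log2(FPKM + 0.1), other scaling factors, no low-count filter, Mup genes left out, and each library left out in turn. Replicate libraries differed by far more than sampling noise (chi-square per degree of freedom of at least 62.8 over genes), so none was counted as a copy of another. The scripts were tested on simulated counts.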

Additional observations from a re-analysis of the deposited data

How the results depend on the processing

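The number of genes called over the whole table was 1141, and became 2347 with DESeq2, 735 without a low-count filter and 102 to 2419 with 1 library left out. Of the 10 stellate cell genes 4 were called, against 7 with DESeq2, 2 without the filter and 0 to 3 with 1 library left out. Of the quiescence markers 2 were called, against 1 with median-ratio factors, 0 without the filter and 0 to 1 with 1 library left out. Of the activation markers 2 were called, against 5 with DESeq2, 4 without scaling factors, 4 with limma on log2(FPKM + 0.1), 4 with limma on log2(FPKM + 0.5) and 0 to 2 with 1 library left out. In the 9 lists 23 genes were called, against 45 with DESeq2, 14 without the filter and 3 to 28 with 1 library left out. The cause of these shifts was not tested, apart from the fewer samples or the other set of genes tested that an alternative brings by construction. The activation minus quiescence difference of -0.44 ranged from -0.62 to -0.19 with 1 library left out and from -0.47 to -0.43 under the other settings. The log2 fold change of Pdgfra reversed to 0.08 without WT replicate 64 and to 0.0848 without CCR1-KO replicate 65, and with 1 library left out it ranged from -0.24 to 0.0848. None of the other genes refitted under the alternatives changed sign: of 662 values over 48 genes, 497 kept their direction and side of the threshold, 132 lost the call, 31 gained it and 2 reversed. Without scaling factors the median log2 fold change of all genes moved from 0.0017 to -0.30 and the share of calls that were higher from 43.9% to 20.4%. With limma on log2(FPKM + 0.5) and log2(FPKM + 0.1) the medians were -0.23 and -0.27 and the shares 17.0% and 18.3%. No paired analysis was possible because the groups share no replicate numbers. Counting error was widest for Acta2 (up to ± 23.5% of a value), below its coefficient of variation between libraries of 79.8% in WT and 45.0% in CCR1-KO.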

Other observations

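WT replicate 64, the highest WT library for all 10 stellate cell genes, was also the highest WT library for 17 of 22 other myofibroblast genes, 10 of 13 matricellular genes, 7 of 9 small leucine-rich proteoglycan genes and 7 of 8 intermediate filament genes. It was highest for 13 of 29 identity genes and 2 of 13 vitamin A genes. Among markers of other cells, it was highest for 9 of 11 portal fibroblast and mesothelial and 7 of 11 bile duct genes, but for 0 of 12 endothelial, 2 of 15 macrophage and 1 of 11 hepatocyte genes. Over all genes tested the share was 33.2%, and 45.7% without scaling factors. This mouse was singled out after its values were seen.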
